A study of Mus musculus with 8 samples.

Results

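Gene expression in mouse hearts was compared to ask whether loss of MAFbx changes the response of the heart to infarction. The comparison was the difference of differences, in which the change after infarction in hearts lacking MAFbx was set against the same change in wild-type hearts. Every one of the 8 arrays of the series entered it, 2 in each of 4 groups, and it was computed for 19938 genes. The 4 groups were MAFbx knockout hearts after myocardial infarction (KO MI), knockout hearts after sham surgery (KO sham), wild-type hearts after infarction (WT MI) and wild-type hearts after sham surgery (WT sham). Infarction was produced by permanent ligation of the left coronary artery. Total RNA was measured on Affymetrix Mouse Gene ST arrays, 1 day after infarction for the MI groups. The titles give no day for the sham arrays, so whether sham and MI match in time cannot be told from them. The labels give the genotypes as MAFbxKO and WT, and the titles mark the WT arrays with LM. No label used here gives the design of the deleted allele or the strain, age and sex of the mice, or says whether arrays of one group are from different animals. The p-values therefore measure the spread between these arrays, which may be technical.

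MAFbx, also called atrogin-1, is the substrate-binding F-box subunit of a ubiquitin ligase that is expressed in heart and skeletal muscle and marks proteins for the proteasome. On the first day after a coronary artery is closed, heart muscle dies, neutrophils and then monocytes enter the injured wall, early response and cytokine genes are induced, and surviving muscle raises wall stress genes while genes of its resting state fall. Cardiac rupture, the subject named in the title of the series, is a tear of the infarcted wall. Throughout, a response is the log2 level in MI minus that in sham, and the difference of differences is the KO response minus the WT response. A negative value thus means that the KO response lies below the WT response. A gene was called where the limma p-value, adjusted by the Benjamini-Hochberg method over all 19938 genes, was under 0.05.

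Fbxo32, the gene that encodes MAFbx, read 5.14 and 5.46 on the log2 scale in the KO MI arrays, 4.68 and 5.17 in KO sham, 8.35 and 8.21 in WT MI and 8.76 and 8.79 in WT sham. Both genotype groups were separate under either surgery. Its KO response was 0.37 (SE 0.18) and its WT response -0.49 (SE 0.18), and neither passed the threshold (limma adjusted p = 0.184 and 0.0662). The difference between them was 0.87 (SE 0.25, 95% interval 0.30 to 1.43, limma adjusted p = 0.487).

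The array medians over all probes lay between 5.004 and 5.25. On the first principal component of the genes, with 73.9% of the variance, the KO MI arrays stood at 31.4 and 32.5, KO sham at -36.4 and -39.2, WT MI at 44.3 and 47.6 and WT sham at -40.1 each. On the second, with 8.56%, KO sham replicate 1 lay at -21.2, with its partner at 15.3, and WT MI replicate 2 lay at -20.2, with its partner at 0.63. Where leaving out a single array moved a list median by more than 1.5 times or turned its sign, the most extreme of those values, or the number of alternatives that turned the sign, stand beside it. The hearts carried high levels of cardiac muscle transcripts in every group. For example, the troponin gene Tnnt2, a marker of heart muscle, read between 13.67 and 13.77 on the 8 arrays.

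No gene passed the threshold for the difference of differences (0 of 19938, 0%, limma). At an unadjusted p under 0.05 there were 1637 genes, or 8.21% of those tested, where evenly spread p-values would give 5%. Of these, 943 (4.73% of all genes) were positive and 694 (3.48%) negative. The smallest adjusted p was 0.0773. Differences of 1 log2 unit or more in size were found for 76 positive and 51 negative genes. The median standard error was 0.21 against 0.15 for a single response, so that for the median gene the 95% interval reached 0.46 on either side. The median gene lay at 0.0079, and 51.1% of genes lay above 0. The 95% interval holds for a gene taken alone, and the threshold adjusted over all genes asks for more. With 2 arrays a group, none of the differences of 1 log2 unit or more passed it. A missed threshold does not show that the genotypes respond alike. An exact permutation of the surgery labels within genotypes has 36 arrangements and cannot give a two-sided p under 0.0556. It also takes infarction to have no effect in either genotype, so it would not test unequal responses as such. The p-values therefore come from the model.

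The response to infarction was called for 4142 genes in KO (20.8%) and 5609 in WT (28.1%). To see how the genotypes differ along this response, genes were ordered by the mean of the KO and WT responses. In a balanced design with equally variable arrays, the error of that mean is uncorrelated with the error of the difference. The mean response was called for 7287 genes (36.5%), of which 3427 (17.2%) rose and 3860 (19.4%) fell. Of the genes that fell, 2922 (75.7%) had a smaller fall in KO, with a median response of -0.49 in KO and -0.67 in WT. Of the genes that rose, 1972 (57.5%) had a smaller rise in KO, with medians of 0.55 in KO and 0.58 in WT. Genes are not independent replicates, and these shares are descriptions of the arrays.

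The share of smaller changes in KO differed with the size of the response. Among the 67 genes whose mean response was a rise of 3 or more, 57 (85.1%) rose less in KO, and the median response was 3.45 in KO against 4.06 in WT. Among the 1538 with a mean rise under 0.5 the share was 55.0%, and among the 1189 with a rise of 0.5 to 1 it was 53.5%. Among falls of 2 to 3 it was 21 of 23 genes (91.3%), with medians of -1.83 in KO and -2.67 in WT. Unadjusted p-values under 0.05 for the difference of differences were found in 53.7% of the largest rises, in 7.93% of the smallest, and in 4.94% of the 12651 genes without a called mean response. Of the 1012 genes with both a called mean response and such a p, 857 (84.7%) changed less in KO, and the responses of the genotypes had opposite signs in 29.

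The share of small rises depended on single arrays and on scaling. Without KO sham replicate 2, smaller rises in KO made up 45.5% of all rises, and with arrays centred on the median of all probes 37.9%. That centring moved the median difference of differences over the tested genes to 0.17. Centring on the median of the tested genes instead gave 57.3%. Among rises of at least 2, smaller rises in KO made up 156 of 191 genes (81.7%), and 69.1% and 74.3% under centring on all probes and without KO sham replicate 2. Among falls of at least 1, smaller falls in KO made up 471 of 546 genes (86.3%), and 78.4% and 76.6% without KO sham replicate 1 or 2. The plot of the difference of differences against the mean response shows this tilt.

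**Figure D1:**
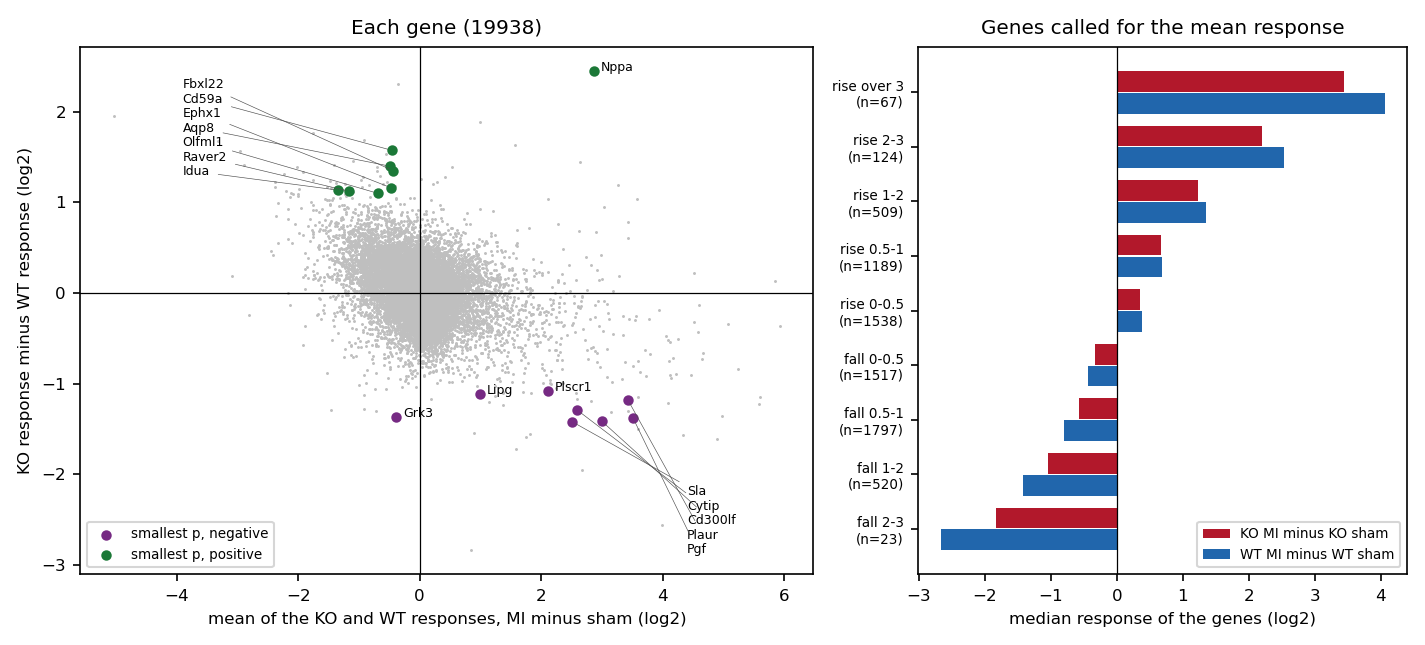
Left, the KO response minus the WT response (log2, vertical) against the mean of both responses (log2, horizontal) for 19938 genes (grey), with the 8 genes of smallest p in each direction in colour; right, the median response in KO (red) and WT (blue) of genes called for the mean response, by its size. Large rises sit mostly below 0 on the left, and the blue bar is longer than the red one in each class shown, by the most at the extremes (3.45 in KO and 4.06 in WT for rises of 3 or more); the class of 3 genes with falls of 3 or more is not drawn.

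The 8 named genes with the smallest p among negative differences were Grk3, Sla, Plaur, Pgf, Plscr1, Cytip, Cd300lf and Lipg. Their differences ran from -1.42 to -1.09 with standard errors of 0.17 to 0.22 and limma adjusted p values of 0.161 to 0.203, so none was called. The KO response was called in all 8 and the WT response in 7 of them. Except for Grk3, these genes rose in both genotypes, and rose less in KO. The genotypes lay farther apart in MI than in sham for 7 of the 8.

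Plaur encodes the receptor of urokinase, which focuses plasmin formation at the surface of invading leukocytes. It read 8.13 and 8.14 in KO MI, 5.24 and 5.36 in KO sham, 8.84 and 8.99 in WT MI and 4.95 and 4.86 in WT sham. The KO MI arrays lay below both WT MI arrays and the KO sham arrays above both WT sham arrays. It rose 7.14-fold in KO (log2 2.84, SE 0.12, limma adjusted p = 1.48e-06) and 16.1-fold in WT (log2 4.01, SE 0.12, adjusted p = 1.2e-07), a difference of -1.18 (SE 0.17, 95% interval -1.56 to -0.79, adjusted p = 0.161).

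Pgf, the placental growth factor that binds the receptor VEGFR1 and draws monocytes, read 8.27 and 8.505 in KO MI, 5.65 and 5.48 in KO sham, 9.59 and 9.56 in WT MI and 5.53 and 5.21 in WT sham. Across all genes, KO and WT differed by the adjusted test in 0.0301% in sham and in 0.0702% in MI. The Pgf MI arrays were more than 1 log2 unit apart between genotypes (KO minus WT -1.19, limma adjusted p = 0.0346), while the sham difference of 0.20 missed the threshold. The response was 2.82 in KO and 4.20 in WT, a difference of -1.38 (SE 0.21, adjusted p = 0.171).

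Sla, Cytip and Cd300lf are genes of leukocytes. Sla, a Src-like adaptor that dampens antigen receptor signals, read 7.56 and 7.42 in KO MI, 5.61 and 5.78 in KO sham, 8.75 and 8.83 in WT MI and 5.42 and 5.71 in WT sham. Its response was 1.80 in KO and 3.22 in WT (difference -1.42, SE 0.20, limma adjusted p = 0.161), and the KO MI level was lower than the WT MI level (-1.29, adjusted p = 0.0238). Cytip, a partner of cytohesins in leukocyte adhesion, read 6.18 and 6.35 in KO MI, 4.48 and 4.16 in KO sham, 7.25 and 7.28 in WT MI and 4.09 and 3.96 in WT sham. Cd300lf, an inhibitory receptor of myeloid cells, read 6.52 and 6.60 in KO MI, 4.26 and 4.27 in KO sham, 7.54 and 7.97 in WT MI and 4.15 and 3.93 in WT sham. In all 3 genes the KO MI arrays lay below both WT MI arrays, which the choice of genes by small p on these same arrays favours. In bulk tissue, fewer cells of a type and less RNA per cell cannot be told apart.

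Plscr1, a phospholipid scramblase that interferon induces, read 10.05 and 10.15 in KO MI, 8.48 and 8.60 in KO sham, 10.70 and 10.68 in WT MI and 8.02 and 8.05 in WT sham. The difference of differences was -1.09 (SE 0.17, limma adjusted p = 0.171, and 0.0471 with an intensity trend in the variance model, with 0.0471 to 0.811 over the 19 alternatives). Both sham groups and both MI groups were separate, in opposite order. Lipg, the endothelial lipase, read 4.11 and 4.26 in KO MI, 3.64 and 3.87 in KO sham, 5.37 and 5.49 in WT MI and 3.91 and 3.86 in WT sham. Its rise was called in WT (1.55, adjusted p = 3.66e-05) and in KO (0.43, adjusted p = 0.0452), and the level in KO MI was lower than in WT MI (-1.24, adjusted p = 0.0238).

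Grk3 encodes a kinase that desensitises G protein-coupled receptors, beta-adrenergic receptors among them. It read 6.05 and 5.85 in KO MI, 7.001 and 7.04 in KO sham, 6.54 and 6.38 in WT MI and 6.14 and 6.18 in WT sham. It fell in KO (-1.07, SE 0.13, limma adjusted p = 0.00041), and its WT response of 0.30 missed the threshold (adjusted p = 0.109). The 2 responses lay on opposite sides of 0 with no overlap of arrays in either genotype, a difference of -1.37 (SE 0.18, adjusted p = 0.161).

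The smallest p of all genes belonged to a small nucleolar RNA, Snora31, a guide for chemical modification of ribosomal RNA, which falls outside the rule for naming genes and was singled out after its values had been seen. It read 7.07 and 7.11 in KO MI, 6.01 and 6.08 in KO sham, 8.05 and 8.16 in WT MI and 5.48 and 5.52 in WT sham. The difference was -1.55 (SE 0.17, limma adjusted p = 0.0773). It was called with an intensity trend and with cyclic loess normalisation. The mean level of the 51 measured small nucleolar RNA genes was 6.18 and 6.40 in KO MI, 5.91 and 5.77 in KO sham, 6.41 and 6.39 in WT MI and 5.58 and 5.64 in WT sham, so KO sham lay above WT sham; its part in the result was not tested.

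The 8 named genes with the smallest p among positive differences were Cd59a, Nppa, Fbxl22, Ephx1, Idua, Aqp8, Raver2 and Olfml1, with values from 1.099 to 2.45 and limma adjusted p values of 0.161 to 0.231. The WT response was called in all 8 and the KO response in 3. In 7 of them the called WT response was a fall. Nppa rose in both genotypes, and more in KO. For 5 genes the genotypes lay farther apart in MI, and for Cd59a, Nppa and Fbxl22 they lay farther apart in sham.

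Ephx1, the microsomal epoxide hydrolase of detoxification, read 7.93 and 7.89 in KO MI, 7.77 and 7.82 in KO sham, 7.02 and 6.73 in WT MI and 7.90 and 7.95 in WT sham. It fell in WT (-1.05, limma adjusted p = 0.000326), while the KO response was 0.11 (adjusted p = 0.635), a difference of 1.16 (SE 0.19, adjusted p = 0.181). The WT MI arrays stood below the other 6. Aqp8, a water channel, read 5.55 and 5.99 in KO MI, 5.42 and 5.69 in KO sham, 4.20 and 4.28 in WT MI and 5.38 and 5.46 in WT sham. Here too the WT MI arrays stood below the rest, and the level in KO MI was higher than in WT MI (1.53, adjusted p = 0.0238).

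Idua, a lysosomal enzyme that degrades glycosaminoglycans, read 7.36 and 7.30 in KO MI, 7.97 and 8.23 in KO sham, 6.61 and 6.74 in WT MI and 8.55 and 8.62 in WT sham. It fell in both genotypes, by 0.78 on the log2 scale in KO and by 1.91 in WT (difference 1.13, SE 0.19, limma adjusted p = 0.203). Raver2, which encodes an RNA-binding protein, likewise fell by 0.60 in KO and by 1.72 in WT. Olfml1, an olfactomedin-like secreted protein, read 5.02 and 5.26 in KO MI, 5.39 and 5.18 in KO sham, 4.56 and 4.49 in WT MI and 5.77 and 5.75 in WT sham. Its fall was called in WT (-1.24), and the KO response was -0.14 (adjusted p = 0.542).

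Nppa encodes atrial natriuretic peptide, which stretched heart muscle releases. It read 12.36 and 12.45 in KO MI, 8.11 and 8.52 in KO sham, 12.27 and 12.25 in WT MI and 10.19 and 11.06 in WT sham. The MI groups ended at nearly the same level, and the sham groups did not overlap. It rose 17.02-fold in KO (log2 4.09, SE 0.25, limma adjusted p = 8.51e-06) and 3.12-fold in WT (log2 1.64, SE 0.25, adjusted p = 0.000952). The difference was 2.45 (SE 0.35, 95% interval 1.66 to 3.24, adjusted p = 0.161). It passed with an intensity trend (adjusted p = 0.0379) and without WT sham replicate 1 (adjusted p = 0.0161), and over the 19 alternatives the adjusted p ran from 0.0161 to 0.678. With 1 array left out, the lone array of its group is assumed to vary like those of the other groups, which alone give the spread. The KO minus WT difference was -2.31 in sham (adjusted p = 0.0154) and 0.14 in MI (adjusted p = 0.875).

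Atrial transcripts varied among the sham arrays. The atrial light chain gene Myl7 read 4.62 and 4.67 in KO MI, 7.86 and 4.56 in KO sham, 4.64 and 4.91 in WT MI and 6.09 and 8.80 in WT sham. The 2 arrays of each sham group therefore differed by more than 2 log2 units. The WT sham array with more Myl7 also had more Nppa, and the KO sham array with more Myl7 had less Nppa. KO sham replicate 1 exceeded WT sham replicate 1 in Myl7 and had less Nppa (8.11 against 10.19). Of 11 measured atrial markers, 10 had a difference of differences above 0, with a median of 0.43, and 3 had an unadjusted p under 0.05, Nppa and the nuclear receptor Nr2f2 (0.47, limma adjusted p = 0.563) among them. The mean of the list, set to 0 in WT sham, was -0.78 and -0.62 in KO MI, -0.35 and -1.02 in KO sham, -0.68 and -0.59 in WT MI and -0.39 and 0.39 in WT sham. The median was -0.01 without WT sham replicate 2, 0.18 without KO MI replicate 2, 0.22 without KO sham replicate 2 and 0.25 without WT MI replicate 1. The atrial markers Sln and Bmp10 read at most 4.18 and 3.15 on any array, where the 10th percentile of genes was 3.05. The part of atrial tissue in the result for Nppa was not tested.

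Cd59a encodes a membrane protein that stops the complement attack complex. It read 9.88 and 9.91 in KO MI, 9.37 and 9.77 in KO sham, 10.33 and 10.15 in WT MI and 11.55 and 11.41 in WT sham. It fell in WT (-1.24, limma adjusted p = 0.0003), and the KO response was 0.33 (adjusted p = 0.178), a difference of 1.57 (SE 0.22, adjusted p = 0.161, with 0.0379 to 0.662 over the 19 alternatives, the lowest with an intensity trend). The WT sham arrays stood above the other 6, and KO sham was lower than WT sham (-1.91, adjusted p = 0.00212). Fbxl22 encodes another F-box protein of heart muscle, found at the sarcomere. It read 6.18 and 6.60 in KO MI, 6.11 and 6.20 in KO sham, 6.03 and 6.12 in WT MI and 7.15 and 7.22 in WT sham, again with WT sham above the rest (difference of differences 1.35, SE 0.21, adjusted p = 0.171).

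**Figure D2:**
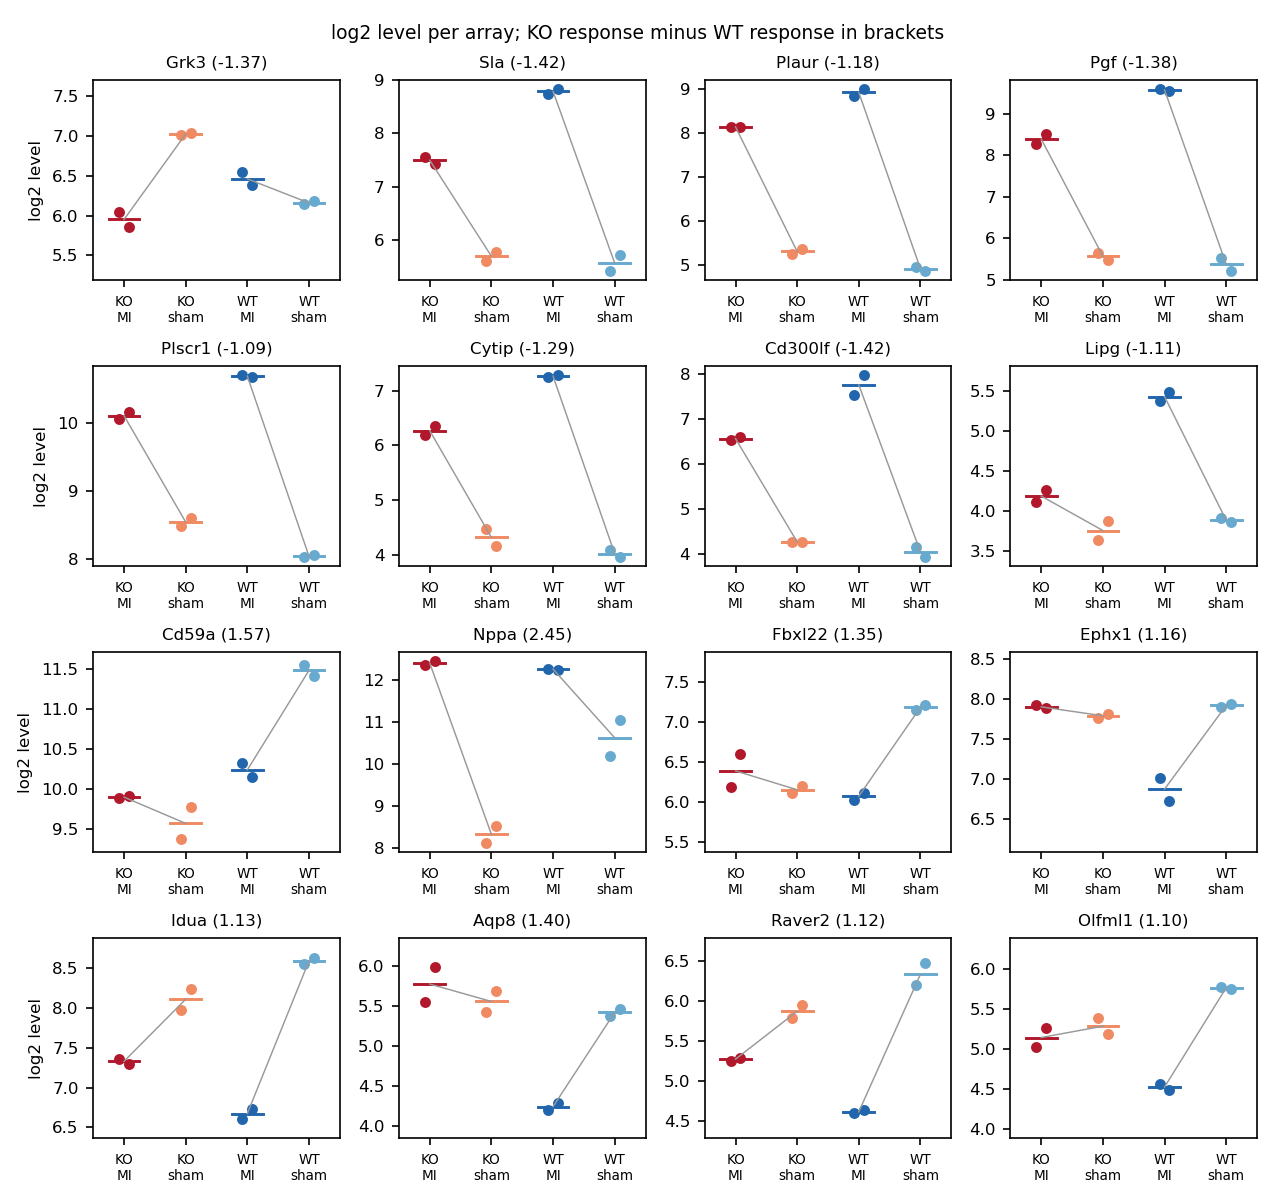
log2 level of the 16 named genes on each array (points) with the group mean (short bars) in KO MI, KO sham, WT MI and WT sham; grey lines join MI to sham within a genotype, and each panel title gives the KO response minus the WT response. In Plaur, Pgf, Sla, Cytip, Cd300lf and Lipg the WT MI arrays stand above the KO MI arrays, in Ephx1 and Aqp8 they stand below the other 6 arrays, and in Cd59a and Fbxl22 the WT sham arrays stand above the other 6. Vertical axes differ between panels and do not start at 0.

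Promoter sequences from RefSeq (build GRCm38.p6) are shown for one gene of each direction, Plaur, whose rise was smaller in KO, and Nppa, whose rise was larger. Each covers 250 bases before to 50 after the gene's start, on the plus strand, at chr7:24462233-24462532 and chr4:148000472-148000771. Capitals mark the AP-1 motif TGANTCA in Plaur, which begins 69 bases before the start, and the TATA box TATAAA in Nppa, which begins 9 bases before it.

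Plaur: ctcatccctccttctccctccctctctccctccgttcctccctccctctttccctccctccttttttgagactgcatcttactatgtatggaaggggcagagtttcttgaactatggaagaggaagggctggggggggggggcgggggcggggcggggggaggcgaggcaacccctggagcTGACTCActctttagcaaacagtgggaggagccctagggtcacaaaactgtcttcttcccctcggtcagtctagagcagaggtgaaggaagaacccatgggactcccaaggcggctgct

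Nppa: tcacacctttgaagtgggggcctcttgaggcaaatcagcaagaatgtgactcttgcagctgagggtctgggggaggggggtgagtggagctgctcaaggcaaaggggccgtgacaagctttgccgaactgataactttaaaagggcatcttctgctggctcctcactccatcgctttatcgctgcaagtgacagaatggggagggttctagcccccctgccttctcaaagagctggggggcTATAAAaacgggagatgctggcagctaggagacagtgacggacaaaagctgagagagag

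Both strands were searched, and TGANTCA reads the same on both. It occurred in 1 of the 5 named negative genes with a promoter entry (Plaur) and in 0 of the 8 positive ones, against 8.97% of 27025 genes. A gene was counted where any of its promoters held the motif. TATAAA occurred in 1 of 5 (Cd300lf) and 2 of 8 (Nppa and Ephx1), against 15.7% of genes. The kappaB motif, bound by NF-kB, occurred in 0 of 5 and 0 of 8, against 1.89%. The E box CACGTG occurred in 0 of 5 and 2 of 8 (Fbxl22 and Aqp8), against 8.09%. These counts describe the letters of the windows and say nothing of the factors.

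Leukocyte markers made up the list with the most negative median. Of 21 measured neutrophil markers, 20 lay below 0, (48.9% of all genes did), with a median difference of differences of -0.75 beside 0.0079 for all genes, and 9 had a negative difference at an unadjusted p under 0.05 (3.48% of all genes did). A rise was called for 12 of the 21 in KO and for 16 in WT, with median responses of 2.77 in KO and 4.06 in WT. Over all genes, a response of either direction was called for 20.8% in KO and 28.1% in WT. These shares also belong beside the called counts of each list below. The mean of the markers, set to 0 in WT sham, was 2.33 and 2.47 in KO MI and 2.89 and 3.39 in WT MI, so the MI groups did not overlap. The KO sham arrays stood at 0.09 and 0.01. The median stayed below 0 in all 19 alternatives, between -0.89 and -0.34, and was -0.49 without WT MI replicate 2.

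Retnlg, a resistin-like protein of neutrophils, read 6.49 and 6.54 in KO MI, 4.19 and 3.41 in KO sham, 8.24 and 9.91 in WT MI and 3.77 and 3.82 in WT sham. Its difference was the most negative of the markers (-2.57, SE 0.62, limma adjusted p = 0.415), and its WT MI arrays lay far apart. Il1r2, the decoy receptor of interleukin-1, read 7.79 and 8.12 in KO MI, 4.73 and 4.09 in KO sham, 8.89 and 9.54 in WT MI and 3.99 and 4.22 in WT sham (difference -1.57, SE 0.36, adjusted p = 0.41). In both genes the KO MI arrays lay below the WT MI arrays.

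Of 23 monocyte and macrophage markers, 18 lay below 0 (median -0.29), 6 of them at an unadjusted p under 0.05. Without WT MI replicate 1 the median was -0.09, without KO sham replicate 2 it was -0.13, and without WT MI replicate 2 it was -0.53. A rise was called for 18 in each genotype. The mean of the list was 2.20 and 2.17 in KO MI and 2.68 and 2.21 in WT MI, where WT MI replicate 2 stood close to the KO MI arrays. Chil3, a chitinase-like protein of activated macrophages, read 6.33 and 6.71 in KO MI, 2.53 and 2.32 in KO sham, 8.46 and 8.76 in WT MI and 3.30 and 2.51 in WT sham. The difference was -1.61 (SE 0.35, limma adjusted p = 0.372), and KO MI was lower than WT MI (-2.09, adjusted p = 0.0248). The sham arrays were near the low end of the array, which makes the size of either rise uncertain. Tyrobp, a signalling adaptor of myeloid cells, rose by 1.88 in KO and by 2.63 in WT (difference -0.75, SE 0.19, adjusted p = 0.433).

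Of 11 markers of resident cardiac macrophages, 7 lay above 0 (median 0.24), and Mgl2 (0.97, SE 0.31, limma adjusted p = 0.517) and the bridging ligand Gas6 (0.49, adjusted p = 0.544) had the smallest p. The median was 0.09 without KO sham replicate 1, 0.53 without KO sham replicate 2, 0.43 without WT MI replicate 1 and -0.0022 without KO sham replicate 1 and WT MI replicate 2 together. Of 14 lymphocyte markers 11 lay below 0 (median -0.22), 1 of them at an unadjusted p under 0.05 (Cd4, -0.51). Most of the 14 were low on these arrays. With the lowest genes by mean level dropped, 5 were left, with a median of -0.15. The median of all 14 was -0.06 with arrays centred on all probes, -0.12 with cyclic loess and -0.33 without WT MI replicate 1. It stayed below 0 in every alternative.

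Of 28 cytokine and chemokine genes, a rise was called for 21 in KO and 23 in WT and a fall for 1 in each. Their difference of differences was centred at -0.25, with 16 below 0 and 12 above, and at -0.14 without KO sham replicate 1 and -0.11 without WT MI replicate 1. At an unadjusted p under 0.05 there were 5 negative and 1 positive. The neutrophil chemokine Cxcl3 read 7.74 and 7.88 in KO MI, 4.08 and 4.57 in KO sham, 8.54 and 9.12 in WT MI and 3.87 and 4.39 in WT sham (difference -1.22, SE 0.34, limma adjusted p = 0.487). Cxcl1, which acts on the same receptor, read 6.63 and 6.94 in KO MI, 5.41 and 4.83 in KO sham, 7.35 and 7.61 in WT MI and 4.77 and 4.85 in WT sham (-1.01, SE 0.28, adjusted p = 0.487). Both sets of KO MI arrays lay below the WT MI arrays. The mean of the list was 2.04 and 1.92 in KO MI against 2.18 and 2.19 in WT MI.

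The NF-kB pathway list, which holds the subunits, their inhibitors and target genes, was centred at 0.0062, close to the median of all genes. Of 24 members 13 lay above 0 and 11 below, and 2 had a negative difference at an unadjusted p under 0.05. These were Ptgs2, the inducible cyclooxygenase (-0.81, SE 0.21, limma adjusted p = 0.457), and Tnfaip3, a feedback inhibitor (-0.47, adjusted p = 0.608). A rise was called for 15 members in KO and for 14 in WT. The sign of this median changed in 9 of 19 alternatives.

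Immediate early genes, the transcription factors and regulators induced first by stress, were centred at -0.38, with 19 of 24 below 0 and 6 at an unadjusted p under 0.05, all negative. The oncogenic transcription factor Myc read 9.18 and 8.86 in KO MI, 6.28 and 6.41 in KO sham, 9.501 and 9.40 in WT MI and 5.71 and 5.88 in WT sham (difference -0.99, SE 0.20, limma adjusted p = 0.346). KO lay below WT in MI and above it in sham. Fosl1, an AP-1 subunit, rose by 1.73 in KO and by 2.77 in WT (-1.05, SE 0.23, adjusted p = 0.384). The list mean was 0.75 and 0.95 in KO MI, 0.12 and -0.01 in KO sham, 1.08 and 1.22 in WT MI and -0.14 and 0.14 in WT sham. The median stayed below 0 in all 19 alternatives (-0.50 to -0.19), and the smallest in size was that without WT sham replicate 1.

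Cell death genes lay below 0 in 14 of 21 members (median -0.14, 4 negative and 1 positive at an unadjusted p under 0.05). The inflammasome sensor Nlrp3 read 5.60 and 5.63 in KO MI, 3.92 and 4.24 in KO sham, 6.36 and 6.65 in WT MI and 3.89 and 4.06 in WT sham (difference -0.99, SE 0.22, limma adjusted p = 0.372). Casp4, an inflammatory caspase, rose by 1.08 in KO and by 1.78 in WT (-0.70, SE 0.18, adjusted p = 0.469). The median of this list was 0.02 with arrays centred on all probes, -0.05 without KO sham replicate 1, -0.08 without KO MI replicate 2, -0.25 without WT MI replicate 2 and -0.27 without KO MI replicate 1. Among 12 heat shock genes, 7 lay below 0, with Hspa1a at -1.11 (SE 0.36, adjusted p = 0.519) and Hspb1 at 0.40 (adjusted p = 0.636). The sign of their median turned in 2 alternatives. Interferon-stimulated genes were centred at 0.0064 with 0 of 21 at an unadjusted p under 0.05, and that sign changed in 7 of 19 alternatives.

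**Figure D3:**
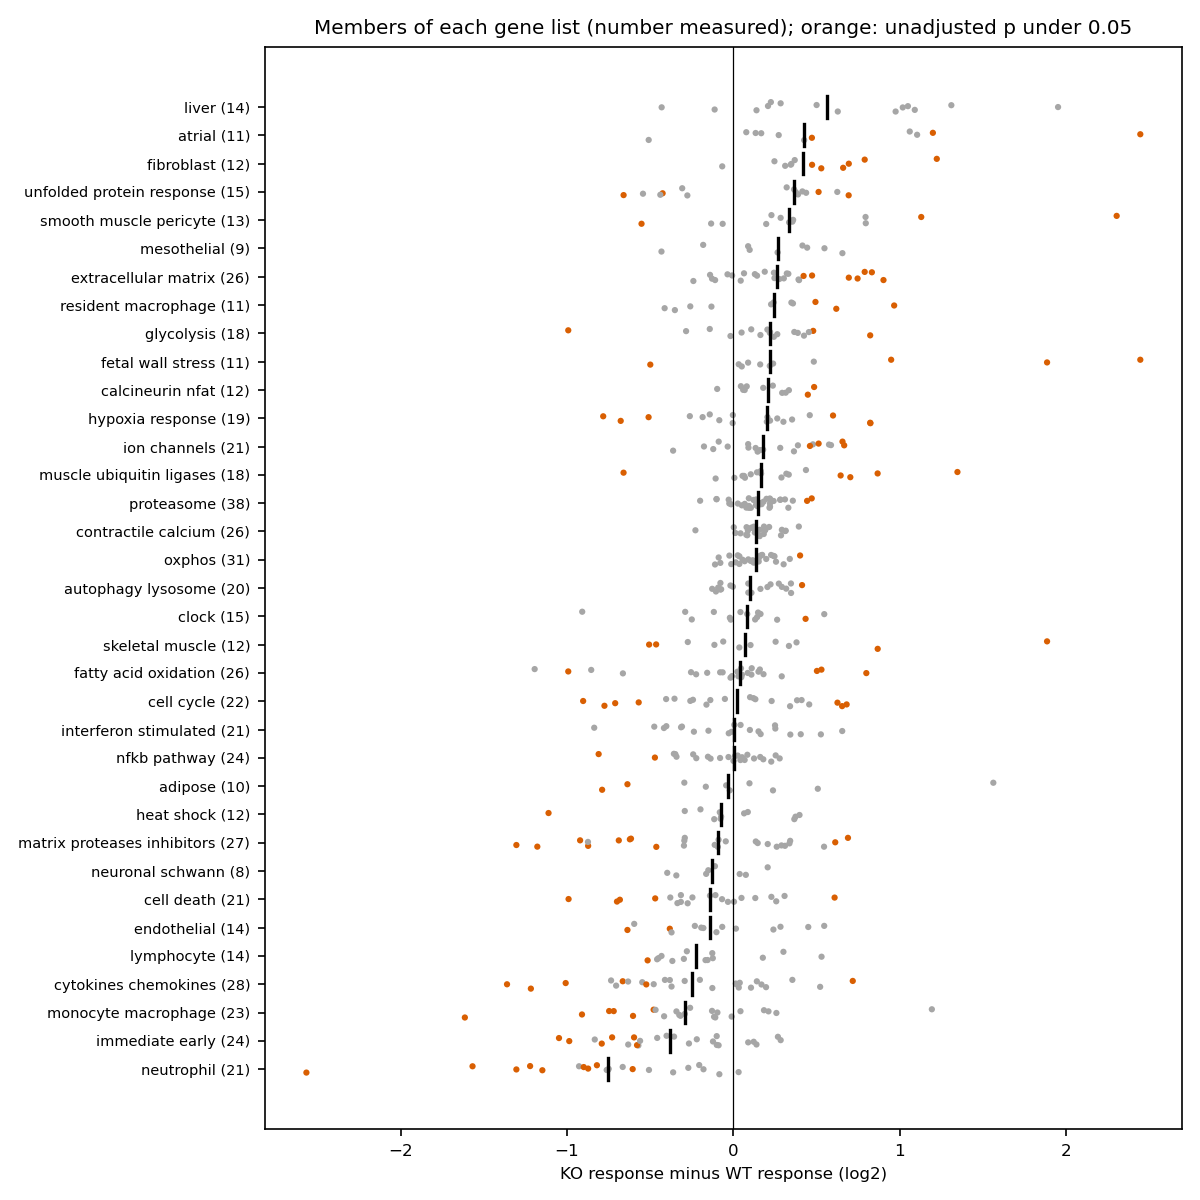
KO response minus WT response (log2, horizontal) of each measured member of the gene lists with at least 8 members (points), with the list median (black bar); orange points had an unadjusted p under 0.05, and none passed after adjustment. Neutrophil markers lie farthest to the left (median -0.75), and liver (0.56), atrial (0.43) and fibroblast markers (0.42) farthest to the right.

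Of 27 matrix proteases and inhibitors 16 lay below 0 (median -0.09), with 8 negative and 2 positive at an unadjusted p under 0.05. The list shares members with the neutrophil markers, so some of the 8 are also counted there. Its median turned to 0.07 with arrays centred on all probes and to 0.05 without KO sham replicate 2, and ran down to -0.25 without KO MI replicate 1. Besides Plaur, the smallest p belonged to Adam8, a protease of leukocytes, which read 8.28 and 8.06 in KO MI, 5.14 and 4.65 in KO sham, 8.91 and 8.98 in WT MI and 4.61 and 4.89 in WT sham (difference -0.92, SE 0.25, limma adjusted p = 0.474). Of 26 matrix proteins 20 lay above 0 (median 0.26), and 7 were positive and 0 negative at an unadjusted p under 0.05. A rise was called for 12 matrix genes in KO and 7 in WT, and a fall for 3 in KO and 10 in WT. Calls of either direction were more frequent in WT over all genes as well (28.1%, against 20.8% in KO).

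Fibrillar collagens were among them. Col3a1 read 8.57 and 8.39 in KO MI, 7.80 and 7.85 in KO sham, 7.75 and 7.55 in WT MI and 7.60 and 7.87 in WT sham. It rose in KO (0.66, limma adjusted p = 0.0097), and the WT response was -0.09 (adjusted p = 0.696), a difference of 0.75 (SE 0.20, adjusted p = 0.474). Col1a2 read 8.35 and 8.12 in KO MI, 8.12 and 8.41 in KO sham, 7.70 and 7.34 in WT MI and 8.25 and 8.42 in WT sham. It fell in WT (-0.82, adjusted p = 0.00524), with a KO response of -0.03 (adjusted p = 0.941) and a difference of 0.79 (SE 0.24, adjusted p = 0.507). In both genes the KO MI arrays lay above the WT MI arrays.

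Fibroblast markers, a list that shares 4 members with the matrix list, lay above 0 in 11 of 12 (median 0.42), and 6 were positive at an unadjusted p under 0.05 (4.73% of all genes were). A fall was called for 3 in KO and for 9 in WT. The list mean was -0.61 and -0.57 in KO MI, -0.25 and 0.02 in KO sham, -0.84 and -1.10 in WT MI and -0.03 and 0.03 in WT sham, so the MI groups did not overlap. Ecm2, a matrix protein of resting fibroblasts, read 6.41 and 6.64 in KO MI, 8.02 and 8.55 in KO sham, 5.86 and 5.04 in WT MI and 8.42 and 8.45 in WT sham (difference 1.22, SE 0.36, limma adjusted p = 0.501). The median was above 0 in all 19 alternatives (0.35 to 0.63).

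Among 13 smooth muscle and pericyte markers 10 lay above 0 (median 0.34, but 0.17 without KO MI replicate 1 and 0.19 without KO sham replicate 1). Cnn1, a calponin of smooth muscle, read 6.46 and 6.49 in KO MI, 5.54 and 5.80 in KO sham, 6.10 and 5.57 in WT MI and 6.40 and 8.28 in WT sham. The difference was 2.31 (SE 0.66, limma adjusted p = 0.487). Its size depended on the WT sham arrays, which lay far apart. It was above 0 in all 19 alternatives, from 1.36 to 3.25. The value of 3.25 was that without WT sham replicate 1, where WT sham is the single high array. Itga8, an integrin subunit outside this list, had a difference of 1.25 on all arrays. The smooth muscle myosin Myh11 read 6.28 and 6.48 in KO MI, 7.03 and 7.15 in KO sham, 6.17 and 6.42 in WT MI and 7.77 and 8.503 in WT sham (1.13, SE 0.31, adjusted p = 0.474). Endothelial markers lay below 0 in 9 of 14 (median -0.14, but 0.02 with arrays centred on all probes), among them Fabp4 (-0.64, SE 0.17, adjusted p = 0.47).

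**Figure D4:**
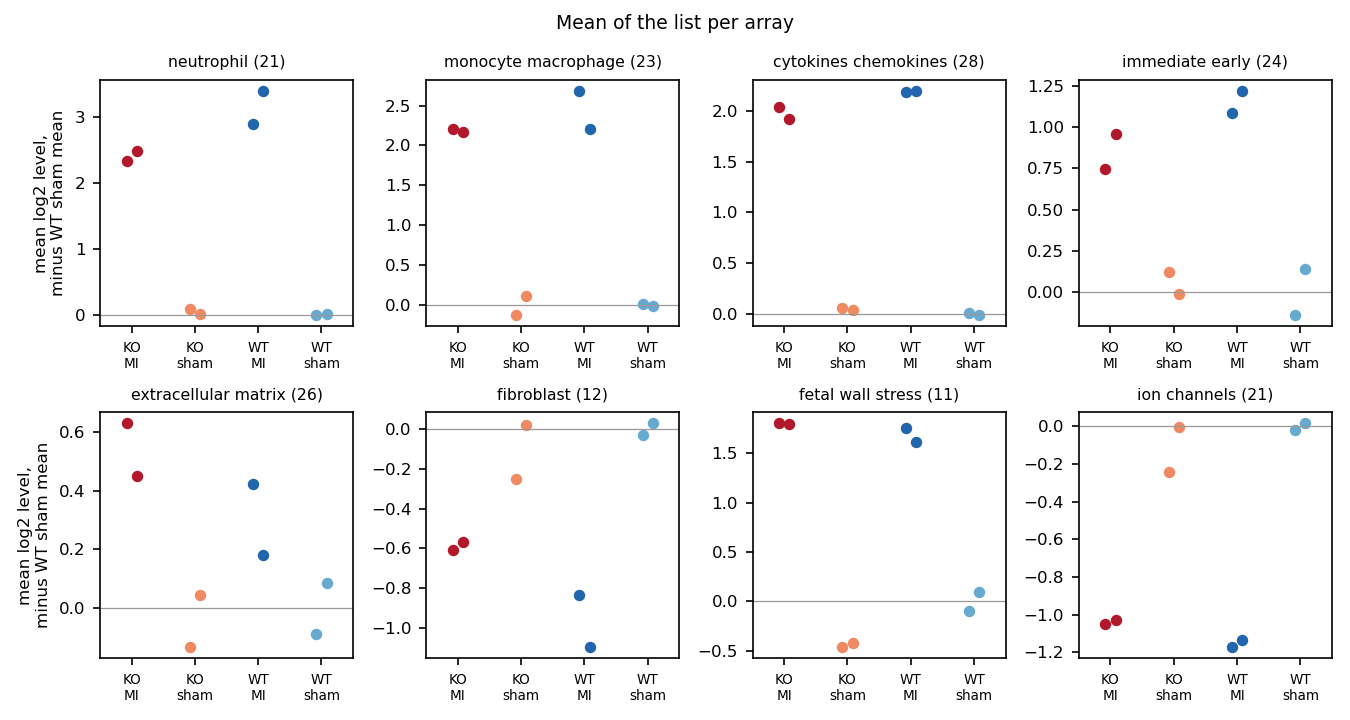
Mean log2 level of 8 gene lists on each array, relative to the WT sham mean (0), in KO MI, KO sham, WT MI and WT sham; the number of measured genes is in each title. Neutrophil and fibroblast means do not overlap between KO MI and WT MI, whereas WT MI replicate 2 (2.21) stands close to the KO MI arrays (2.20 and 2.17) for monocyte and macrophage markers. The KO sham arrays stand lowest for wall stress genes, mostly through Nppa and Acta1.

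Wall stress genes, which overloaded heart muscle raises, were above 0 in 10 of 11 members (median 0.22, and 0.13 without WT sham replicate 2). Next to Nppa, the skeletal isoform of sarcomeric actin, Acta1, had the largest difference. It read 8.76 and 9.36 in KO MI, 6.97 and 7.28 in KO sham, 10.48 and 9.91 in WT MI and 10.29 and 10.01 in WT sham. The KO arrays lay below all WT arrays. Acta1 rose in KO (1.94, SE 0.24, limma adjusted p = 0.000515), and its WT response was 0.05 (adjusted p = 0.906), a difference of 1.89 (SE 0.34, adjusted p = 0.256). The list mean in KO sham was -0.46 and -0.42, against -0.09 and 0.09 in WT sham, and in MI it was 1.80 and 1.79 in KO against 1.75 and 1.62 in WT. The gap of the means in sham came mostly from Nppa and Acta1. The median KO minus WT difference in sham over the 11 members was -0.14. Skeletal muscle markers, which include Acta1, were centred at 0.07, and their sign turned in 2 alternatives.

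Of 26 genes of contractile proteins and calcium handling 25 lay above 0 (51.1% of all genes did), with a median of 0.14 and 0 at an unadjusted p under 0.05. With the lowest 33.3% of genes by mean level dropped, the median over the genes left was already 0.06. The list median was 0.06 without KO sham replicate 1, 0.08 with cyclic loess and 0.30 with arrays centred on all probes. A fall was called for 6 in KO and for 9 in WT. Mybpc3, the cardiac myosin-binding protein C, read 11.84 and 12.01 in KO MI, 12.26 and 12.51 in KO sham, 11.51 on both WT MI arrays and 12.31 and 12.41 in WT sham (difference 0.39, SE 0.19, limma adjusted p = 0.637). Pln, phospholamban, the inhibitor of the calcium pump, stood at 13.46 and 13.47 in KO MI and 13.08 and 13.02 in WT MI (0.31, adjusted p = 0.652).

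Of 21 ion channel genes, a fall was called for 16 in KO and 17 in WT, with median responses of -0.79 in KO and -1.25 in WT. The difference was above 0 for 16 (median 0.18, 0.41 without KO sham replicate 2 and 0.33 without WT MI replicate 2), and 4 were positive at an unadjusted p under 0.05. The background potassium channel gene Kcnk3 read 8.72 and 8.84 in KO MI, 9.66 on both KO sham arrays, 8.09 on both WT MI arrays and 9.54 and 9.43 in WT sham (difference 0.51, SE 0.17, limma adjusted p = 0.519). The transient outward channel gene Kcnd2 fell by 1.66 in KO and by 2.31 in WT (0.66, SE 0.25, adjusted p = 0.574), where the groups were apart in sham (-0.63) rather than in MI (0.03). Calcineurin, NFAT and MEF2 genes were above 0 in 11 of 12 (median 0.21, from 0.12 without WT MI replicate 2 to 0.35 without WT MI replicate 1), among them Mef2c (0.45, adjusted p = 0.585).

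Fatty acid oxidation genes were centred at 0.04, a sign that turned in 4 alternatives, but their regulator Ppara read 8.40 and 8.61 in KO MI, 9.01 and 9.22 in KO sham, 7.89 and 7.96 in WT MI and 9.42 and 9.26 in WT sham. It fell by 0.62 in KO and by 1.42 in WT (difference 0.80, SE 0.19, limma adjusted p = 0.415). The coactivator gene Ppargc1a fell by 0.82 in KO and by 1.32 in WT (0.50, adjusted p = 0.548). Pdk4, the kinase that shuts pyruvate out of oxidation, differed the other way (-0.99, SE 0.36, adjusted p = 0.555). Oxidative phosphorylation genes lay above 0 in 26 of 31 (median 0.13, 1 at an unadjusted p under 0.05), and glycolysis genes in 14 of 18 (median 0.22), including the hexokinase Hk2 (0.82, SE 0.28, adjusted p = 0.533). Without KO sham replicate 1 the medians were 0.01 for oxidative phosphorylation and 0.11 for glycolysis, and without KO sham replicate 2 they were 0.24 and 0.35. With cyclic loess they were 0.06 and 0.14, and with arrays centred on all probes 0.29 and 0.38. A rise was called for 10 glycolysis genes in KO and 7 in WT.

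Hypoxia genes went both ways, with 3 positive and 3 negative of 19 at an unadjusted p under 0.05 and a median of 0.20, which was 0.12 without KO sham replicate 1, 0.09 without WT sham replicate 1 and 0.04 without WT MI replicate 1. The prolyl hydroxylase P4ha2, which matures collagen, stood at 0.82 (SE 0.24, limma adjusted p = 0.487), and the glycolysis regulator Pfkfb3 at -0.78 (SE 0.20, adjusted p = 0.47). Genes of the unfolded protein response lay above 0 in 9 of 15 (median 0.37). That median was 0.16 without KO sham replicate 1, 0.22 without either KO MI replicate 2 or WT MI replicate 2, and 0.02 without KO sham replicate 1 and WT MI replicate 2 together. The smallest p belonged to negative members, the pseudokinase Trib3 (-0.66, SE 0.19, adjusted p = 0.487) and its activator Atf4 (-0.42, adjusted p = 0.585).

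Among 18 muscle ubiquitin ligase genes and their partners, 16 lay above 0 (median 0.17, from 0.06 without KO sham replicate 1 to 0.30 without KO sham replicate 2), and 4 were positive and 1 negative at an unadjusted p under 0.05. Besides Fbxl22 and the targeted gene itself, Fbxo32 (0.87), these included Asb2, a substrate receptor for filamins. Fbxo32 is counted in the 16 and the 4, although as the deleted gene it is no separate observation on the ligases. Asb2 read 9.86 and 9.88 in KO MI, 10.32 and 10.61 in KO sham, 9.41 and 9.53 in WT MI and 10.73 and 10.80 in WT sham. It fell by 0.59 in KO and by 1.29 in WT (difference 0.70, SE 0.19, limma adjusted p = 0.474). Of 38 proteasome subunits, a rise was called for 21 in KO and 15 in WT and a fall for 1 in each, and 32 had a difference of differences above 0 (median 0.15). That median turned to -0.01 without KO sham replicate 1 and was 0.30 without KO sham replicate 2, and the KO sham list means were -0.24 and 0.03. The proteasome median was 0.06 with cyclic loess and 0.31 with arrays centred on all probes. Psma7 had a difference of 0.47 and the immunoproteasome subunit Psmb10 of 0.44 (adjusted p = 0.598 and 0.586). Autophagy and lysosome genes were centred at 0.10 (0.01 without KO sham replicate 1 and 0.17 without KO sham replicate 2), with Tfeb, their master regulator, at 0.41 (adjusted p = 0.608). The median of the autophagy and lysosome list was 0.02 with cyclic loess and 0.26 with arrays centred on all probes.

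Cell cycle genes held differences of both signs, with 3 positive and 4 negative of 22 at an unadjusted p under 0.05. The G1 cyclins Ccnd1 (0.68, SE 0.17, limma adjusted p = 0.433) and Ccnd2 (0.65, SE 0.17, adjusted p = 0.474) were positive. Ccnd1 rose in KO (0.51, adjusted p = 0.0151) with a WT response of -0.17 (adjusted p = 0.329). Of 15 clock genes, which follow the time of day, 1 had an unadjusted p under 0.05 (Hlf, 0.44), and Per1, at -0.91, read 8.36 and 6.73 on the KO sham arrays.

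Markers of tissues that can come along with a heart sample varied among sham arrays. Of 14 liver markers 12 lay above 0 (median 0.56), and 0 had an unadjusted p under 0.05. Their mean was -1.73 and -1.57 in KO MI, 0.15 and -1.77 in KO sham, -1.56 and -1.38 in WT MI and -0.43 and 0.43 in WT sham, and their median was -0.23 without KO sham replicate 2, 0.25 without WT sham replicate 2 and 1.32 without KO sham replicate 1. Ttr, a liver gene, read 6.12 and 4.17 on the KO sham arrays, and Apoh at most 4.97 on any array. Adipose (median -0.03), mesothelial (0.27), neuronal and Schwann cell (-0.13) and erythrocyte markers (-0.41, 2 measured) changed sign in 8, 1, 2 and 1 of 19 alternatives. The adipose list also holds Fabp4, which has its smallest p, followed by Lep (-0.79). The smallest p of the other lists belonged to Wt1 (-0.43, mesothelial), Nefl (-0.40, neuronal) and Alas2 (-0.69, erythrocyte). Of 4 sex-linked genes measured, Xist read at most 3.17 on every array and the Y-linked Kdm5d between 5.54 and 7.08. The part of any of these in the results above was not tested.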

How the data were processed

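Deposited log2 expression values came from RMA in Affymetrix Expression Console, run by the authors, per the submitters' processing notes, with versions not given in the sources used here. RMA as commonly run equalises array distributions, which reduces shifts shared by most genes. Of 35556 probes, 21789 had 1 gene in the platform annotation, and 1621 had several. For each gene the probe with the highest mean over the 8 arrays was kept, without a filter on low values. Array number limits the precision.

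A limma 3.58.1 model (R 4.3.3) with 4 group means was fitted to all 8 arrays (4 residual and 5.57 prior degrees of freedom), with two-sided tests. Genes named were Fbxo32, the 8 with the smallest p per direction (as 0 passed), and up to 2 of smallest p per list; clone-like names, small RNAs, olfactory and vomeronasal receptors and immune receptor segments were not named, apart from Snora31. Tnnt2, Myl7, Sln, Bmp10, Xist and Itga8 were added after seeing values. The members and lists were chosen with earlier results of these data known. Naming genes by small p on these arrays favours genes whose groups do not overlap, so such separation only describes them. The code was tested on simulated data. The 19 alternatives were an intensity trend, array weights, a robust prior, dropping the lowest 33.3% of genes by mean level, averaging the probes of a gene, all probes, cyclic loess, centring on all probes or on tested genes, a replicate block, and leaving out each array or 2 together. Of these, leaving out 2 arrays together and centring on tested genes were added after seeing the data, as were the shares of smaller changes and list medians under alternatives. Figures used matplotlib 3.10.9 (Python 3.11.15).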

Additional observations from a re-analysis of the deposited data

Results flagged for a closer look

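For 8 of the genes named, both arrays of KO MI lay on one side of both KO sham arrays, while both WT MI arrays lay on the opposite side of the WT sham arrays. The differences of differences were 1.57 for Cd59a, 1.16 for Ephx1, 2.31 for Cnn1, 0.82 for P4ha2, 0.68 for Ccnd1 and 0.41 for Tfeb, where the KO arrays moved up and the WT arrays down, and -1.37 for Grk3 and -0.64 for Fabp4, where they moved the other way. None passed the limma test of the difference after adjustment over all genes. This arrangement was found in 569 of 19938 genes (2.85%), and naming genes by small p on these arrays favours it.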

How the results depend on the processing

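The count of 0 genes for the difference of differences (limma) became 4 with an intensity trend, 1 with cyclic loess and 0 to 3 when each array was left out, the 3 without WT sham replicate 1. Genes at an unadjusted p under 0.05 numbered 922 to 3577 when arrays were left out, 3577 without KO sham replicate 2, beside 1637 on all arrays. The mean response was called for 5682 to 7719 genes when arrays were left out.

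Smaller rises in KO made up 37.9% of rises with arrays centred on all probes, 55.1% with the lowest genes removed, 60.3% over all probes, 60.2% without KO sham replicate 1 and WT MI replicate 2 together, and 45.5% to 62.6% when arrays were left out. Smaller falls made up 88.5% with centring on all probes, 69.6% over all probes, 72.4% with cyclic loess, 66.9% without both those arrays, and 67.1% to 78.6% when arrays were left out. Among rises of at least 2 the share was 69.1% with centring on all probes and 74.3% to 84.1% when arrays were left out. Among falls of at least 1 it was 67.4% over all probes, 91.7% with centring on all probes, 76.8% without both arrays, and 76.6% to 87.0% when arrays were left out. The cause was not tested.

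Per1 turned to 0.12 without both arrays, Slc4a1 to 0.024 with centring on all probes and to 0.23 without WT MI replicate 1, and Uty to -0.23 without WT MI replicate 2 and -0.34 without both arrays. With each array left out Slc4a1 ran from -0.50 to 0.23 and Uty from -0.23 to 1.28. The deviations of same-numbered arrays had correlations of -0.19 to 0.16 between groups. As each group has only 2 arrays, this cannot settle whether equal numbers mark pairs. With the replicate number as a block 0 genes were called, 1471 had an unadjusted p under 0.05, and the mean response was called for 6921. With 2 arrays a group, the spread is estimated on 4 residual degrees of freedom.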
